A study of Mus musculus with 11 samples.

Results

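Of 110304 mouse brain nuclei measured by droplet single-nucleus RNA sequencing, 930 carried the class name Pericytes in the submitters' per-nucleus annotation, and these 930 nuclei are described here. The class was chosen by that name alone. It came from an automated prediction against a reference that is not stated, so the genes of the nuclei had already decided the name, and levels that set the class apart from other classes are given as a description with no test. They came from 11 libraries. The genotype label of all mice is a homozygous knock-in of the human transferrin receptor (TfR), and all received 4 weekly intravenous doses, with brains collected 72 h later. Each label gives 1 sex and age, and none says whether a library held 1 animal. ATV:BACE1 (57 mg/kg, n = 3), a TfR-binding molecule that carries no antisense oligonucleotide (ASO), was the control. OTV:Malat1 (60 mg/kg, n = 3) joins a TfR-binding molecule to an ASO against Malat1, nonTV:Malat1 (60 mg/kg, n = 3, titled RSV-ASO) is its counterpart without the TfR-binding part, and Malat1 ASO (2.5 mg/kg, n = 2) is the bare oligonucleotide. Replicate 1 of each group was a female of 2.33 months, replicate 4 a male of 2.57 months and replicate 5 a male of 2.33 months, and these numbers coincide with the deposited batches, so batch, sex and age cannot be told apart. A Malat1 ASO replicate 4 was not analysed here. The labels give the brain region as posterior and the strain as a TfR knock-in, whereas the deposited annotation gives cortex and C57BL/6J, and this conflict was not resolved.

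Brain capillaries are tubes of endothelial cells that carry the blood-brain barrier, with its tight junctions and transporters. Pericytes lie on the outside of that tube inside a shared basement membrane. They are drawn to it by platelet-derived growth factor, which the endothelium makes and which pericytes sense through the receptor Pdgfrb, and they take part in setting the calibre of the vessel. Because both cells are small, flat and pressed together, separating them is a known difficulty in brain vessel work. Malat1 is an abundant nuclear long non-coding RNA of nearly every cell type, which makes it a usable target for following where an ASO acts.

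Each library held 40 to 126 of these nuclei, or 0.462% to 1.31% of its nuclei, from 88234 to 343387 UMIs (unique molecular identifiers, each counting 1 captured RNA molecule). Whole libraries had 33235994 to 43972886 UMIs. The median nucleus of the class had 1930.5 UMIs, against 960.5 in the 1106 nuclei named vascular endothelium and 821 in the 330 named vascular smooth muscle. The OTV:Malat1 replicate 5 library stood apart with the lowest median depth (1029 UMIs, the highest being 3233) and the lowest median prediction score (0.733 on a scale from 0 to 1, against 0.934 for the whole class). The submitters called 47 of the 930 nuclei doublets (5.05%), with the highest share in nonTV:Malat1 replicate 1 (16.8%) and Malat1 ASO replicate 1 (14.1%). No barcode of the class occurred in 2 libraries (0 of 930).

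The 5 genes read as markers of the class were chosen from 2 cell types, so that mix is not itself a result. Vtn (vitronectin, an adhesive matrix protein, chr11:78499091-78502324 in GRCm38), Pdgfrb (the growth factor receptor of pericytes, chr18:61045150-61085061) and Rgs5 (a brake on G protein signalling in mural cells, chr1:169655501-169695813) are pericyte genes. Flt1 (a receptor of vascular endothelial growth factor, chr5:147561604-147726011) and Cldn5 (the main claudin of the endothelial tight junction, chr16:18776847-18778262) are endothelial genes. All 5 are protein-coding in the GENCODE annotation. To make depth equal, nuclei were thinned at random to 1000 UMIs and shallower ones left out. Then Vtn had a UMI in 83.4% of the 742 remaining nuclei of the class, Rgs5 in 78.6% and Pdgfrb in 44.1%. In the same nuclei Flt1 had a UMI in 96.8% and Cldn5 in 84.8%. Free RNA in droplets gives stray UMIs in any nucleus: thinned the same way, neurons (median 3926 UMIs before thinning) had each of the 5 genes in 0.391% to 0.981% of nuclei, and oligodendrocytes (median 947 UMIs) in 0.279% to 2.62%. Some genes were more frequent in other classes. Astrocytes had Pdgfrb in 8.36%, and leptomeningeal cells had Vtn in 13.3%, Flt1 in 12.4% and Pdgfrb in 11.9%. The rest of the 5 genes were in 0.890% to 2.40% of the nuclei of these classes. The part of free RNA was not tested. In nuclei named vascular endothelium Rgs5 had a UMI in 55.4%, Vtn in 12% and Pdgfrb in 4.19%, so Rgs5 separated the names least among the 3 pericyte genes. Without thinning, the 930 nuclei had Vtn in 87.2% and Flt1 in 87.1%.

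The name Pericytes therefore covers only part of what these nuclei held. A list of 13 pericyte genes reached 8084 CPM (UMIs scaled to a common total) in the class, 1516 in nuclei named vascular endothelium and 10172 in nuclei named vascular smooth muscle. A list of 17 endothelial genes reached 19091 CPM in the class, against 24038 in vascular endothelium and 2362 in vascular smooth muscle. All 13 pericyte genes were above vascular endothelium and all 17 endothelial genes were below it. Flt1 stood at 77.0% of its endothelial level, Ly6c1 at 90.3%, Emcn (an endothelial sialomucin) at 88.3% and Mecom (a transcription factor of endothelium) at 69.6%. Over the libraries the lists ranged from 6767 to 8969 CPM for pericyte genes and from 16489 to 20725 CPM for endothelial genes. Markers of other cells were also present: the neuron list had 1261 CPM against 12324 in neurons, the choroid plexus list 762, the astrocyte list 739 and the oligodendrocyte list 642 CPM. The smooth muscle list (Acta2, Myh11 and 5 more) had 80.7 CPM against 1111 in vascular smooth muscle, and the fibroblast list had 89.3 CPM against 3512 in leptomeningeal cells. The nuclei named vascular smooth muscle had a median score of 0.545 and more pericyte than smooth muscle RNA, so that name too should be read as a label.

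Among genes of at least 100 CPM, those highest in the class relative to the mean of the other classes again mixed the 2 sources. Ndufa4l2 (12.8 times the mean of the other classes), Vtn and Higd1b (both 11.8 times), Cox4i2 (7.89 times) and Kcnj8 (7.44 times) are mural genes. Foxq1 (7.80 times), Robo4 (7.69 times), Sox18 (7.21 times), Cldn5 (7.14 times) and Cxcl12 (6.95 times) are endothelial. Genes among the 10 highest relative to vascular endothelium alone included Kcnj8 and Abcc9, the pore and the sulfonylurea receptor of the vascular ATP-sensitive potassium channel (24 and 22.4 times), Slc38a11 (22.3 times), Slc6a20a (15.6 times), the non-coding RNA Carmn (13.8 times), Vtn (13.7 times), Atp13a5 (13.0 times) and the proteoglycan Cspg4 (12 times). Except for Vtn, these were higher still in nuclei named vascular smooth muscle, such as Atp13a5 with 2878 against 1085 CPM and Slc38a11 with 927 against 261. At the other end Eln, the elastin gene of larger vessels, stood at 0.116 times its level in vascular endothelium.

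Endothelial and pericyte RNA were found under the same barcodes, that is in what was counted as 1 nucleus. A nucleus was said to hold RNA of a list when at least 2 of its 1000 thinned UMIs were on that list. Of the 742 nuclei, 719 held both lists (96.9%, 95% exact binomial interval 95.4% to 98.0%, counting error only), 15 held the endothelial list only, 8 the pericyte list only and 0 neither. Over the 11 libraries the share with both was 96.6% ± 2.09 (SD, n = 11), from 90.9% in nonTV:Malat1 replicate 4 to 98.8%. By the same minimum of 2 UMIs, 27.2% of these nuclei held the neuron list, 11.6% the oligodendrocyte list and 10.1% the astrocyte list. The typical nucleus carried 19 endothelial and 8 pericyte UMIs per 1000. In vascular endothelium 38.9% of nuclei held both, with medians of 25 and 1 UMIs, and in vascular smooth muscle 21.1%, with medians of 0 and 10.

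**Figure D1:**
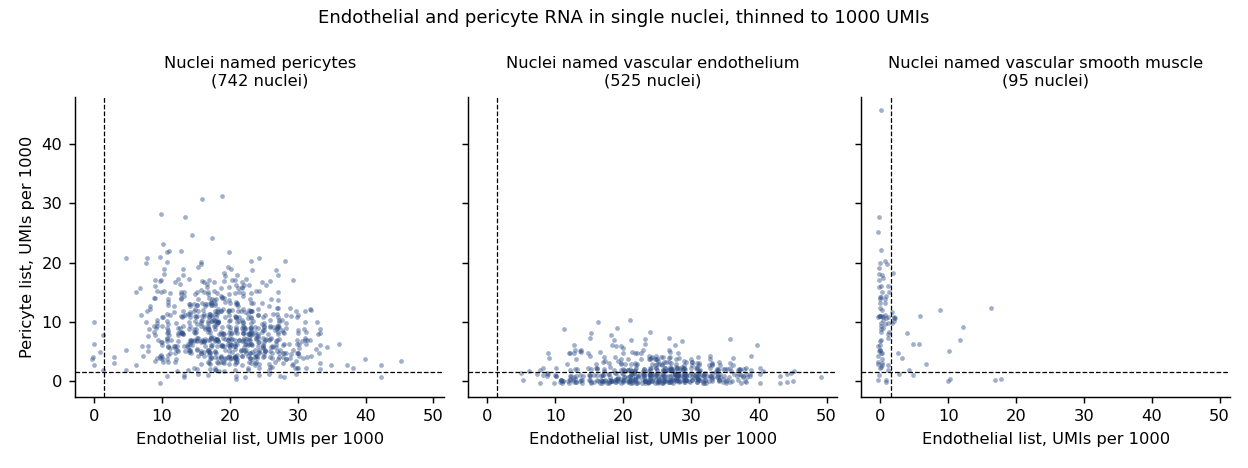
UMIs on the endothelial list (x axis) against UMIs on the pericyte list (y axis) in single nuclei thinned to 1000 UMIs, for the 3 vascular class names; each point is 1 nucleus, slightly shifted at random so that points do not hide each other, and dashed lines mark the minimum of 2 UMIs. The 742 nuclei named pericytes form 1 cloud in the upper right, not an upper left and a lower right group.

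Among these nuclei of at least 1000 UMIs the mixing was graded, not divided into 2 groups. The pericyte part of the 2 lists together had a median of 29.2% in the class, with 90% of nuclei between 9.53% and 60.0%, and 698 of 742 nuclei (94.1%) lay between 10% and 90%. The medians were 4.0% in vascular endothelium and 100% in vascular smooth muscle. As single pairs, Flt1 and Vtn were both seen in 603 of 742 nuclei (81.3%), a share that is nearly fixed because Flt1 alone was seen in 96.8%. Cldn5 and Pdgfrb were both seen in 37.3% of nuclei, where the product of their separate shares is 37.4%. Across nuclei, which are not independent replicates, the UMIs of the 2 lists had Pearson r = -0.185 and Spearman rho = -0.176 (n = 742). The 2 counts share a fixed total of 1000 UMIs, of which the lists took medians of 19 and 8. What the fixed total adds to these values was not tested.

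Nuclei with more of both lists mostly carried this name, which was itself predicted from the genes. Over all classes 662 nuclei had at least 5 thinned UMIs on both lists. Of these, 595 (89.9%) were named pericytes, 41 vascular endothelium and 13 neurons. At the minimum of 2 UMIs other names were common. Beside the 719 named pericytes, 204 nuclei named vascular endothelium, 94 neurons (0.127% of neurons), 74 astrocytes and 71 glia held both lists. So did 64 leptomeningeal and 20 smooth muscle nuclei. Conversely, among nuclei of at least 1000 UMIs, 276 had at least 5 pericyte UMIs and fewer than 2 endothelial UMIs. Only 4 of these were named pericytes, against 169 leptomeningeal and 55 vascular smooth muscle. Shallower nuclei, among which most pericyte-only nuclei of the class were found, are read below. The pericyte list is partly shared with leptomeningeal cells, which had 2232 CPM of it and, for Slc6a20a alone, 1593 CPM against 513 in the class. Whether a barcode with both lists held 1 nucleus, 2 nuclei or a nucleus with attached cell debris was not tested. The submitters' doublet calls did not separate them: 95.7% of the 47 called doublets and 97.0% of the 695 other nuclei held both lists. The share of called doublets did climb with depth, from 0% of nuclei under 1000 UMIs to 22.7% of those with at least 4000.

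A second kind of nucleus appeared among the shallow ones, which a depth of 1000 UMIs leaves out. Thinned to 500 UMIs, 929 nuclei could be read: 687 (74.0%, 95% exact binomial interval 71.0% to 76.7%) held both lists, 125 (13.5%) the pericyte list only, 111 (11.9%) the endothelial list only and 6 neither. The pericyte-only share was 14.2% ± 4.83 (SD, n = 11 libraries), from 8.42% to 23.4%. It was tied to depth. Of nuclei with 500 to 749 UMIs, 87 of 111 (78.4%) were pericyte-only and 20 held both. From 750 to 999 UMIs 29 of 76 (38.2%) were pericyte-only and 43 (56.6%) held both. From 1000 to 1999 UMIs 6 of 299 were pericyte-only, with 262 (87.6%) holding both.

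The other vascular names are given as a description, since those names were also predicted from the genes and fix much of the outcome. In vascular endothelium at 500 to 749 UMIs, 300 of 350 nuclei (85.7%) were endothelial-only and 0 pericyte-only, and over all depths pericyte-only nuclei were 0 of 1105, which allows a share of up to 0.271% (3 counts of the total, counting error only). The nuclei named vascular smooth muscle resembled the shallow pericyte nuclei, with 266 of 330 (80.6%) pericyte-only. Without thinning, the endothelial list stood at 5887 CPM in pericyte nuclei under 1000 UMIs and at 18192, 20527 and 20282 CPM in the next bands, split at 2000 and 4000 UMIs. The pericyte list went the other way, from 9734 and 9758 CPM to 8164 and 6740 CPM.

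**Figure D2:**
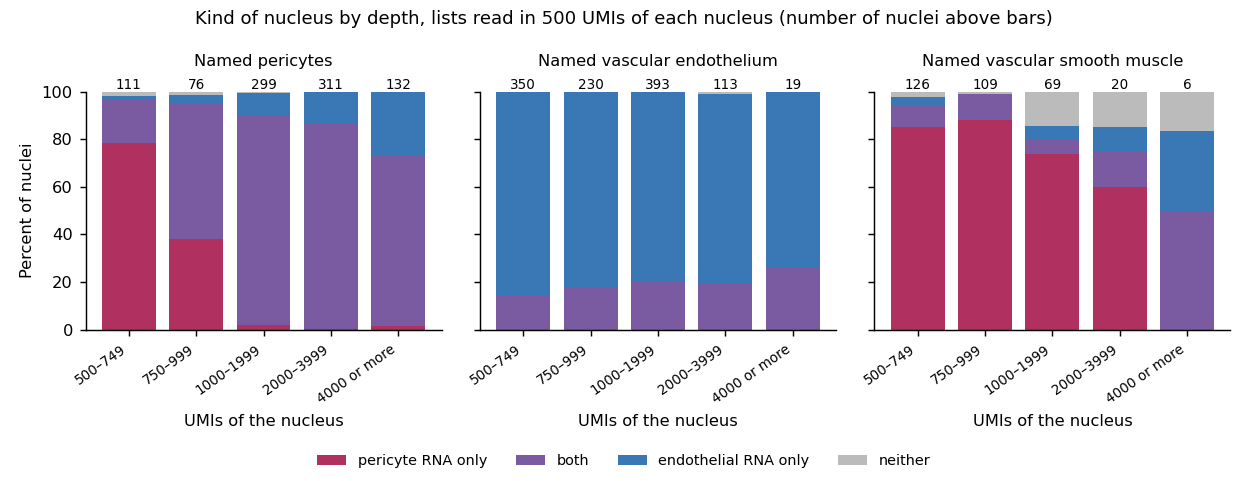
Share of nuclei (y axis, percent) holding pericyte RNA only, both lists, endothelial RNA only or neither, by the UMIs of the nucleus before thinning (x axis), for the 3 vascular class names; each nucleus was read at 500 UMIs and the numbers above the bars count nuclei. Among nuclei named pericytes, pericyte RNA only makes up 78.4% of the shallowest nuclei. Nuclei with both lists make up 56.6% at 750 to 999 UMIs and 87.6% at 1000 to 1999 UMIs.

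The pericyte-only kind was named with little certainty. Its median prediction score was 0.438, and 92.8% of these nuclei scored under 0.5, against 3.06% of the nuclei with both lists (median score 0.964). Their median depth was 665 UMIs against 2114. Of the lists of other cells, the neuron list had 2886 CPM against 1125, the oligodendrocyte list 1859 against 578 and the choroid plexus list 2270 against 728. The smooth muscle list had 82.2 CPM against 83.8, the fibroblast list 92.4 against 85 and the red blood cell list 30.8 against 173. Called doublets were 1.6% against 4.51%. The part of free RNA in these values was not tested. The 111 nuclei called endothelial-only at 500 UMIs had a median of 2611 UMIs and 12.6% called doublets. All their UMIs together still held 5096 CPM of the pericyte list, against 984 CPM in the nuclei of the same kind named vascular endothelium, so in this class the name says only that the pericyte list was under 2 UMIs at that depth.

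The kinds were defined by the 2 lists, so their list totals are not findings, but single list genes did not move in step. Atp13a5, a P5-type ATPase of pericytes, had 2988 CPM in pericyte-only nuclei and 1049 in nuclei with both lists. Pdgfrb had 1017 against 587, Notch3, the mural Notch receptor, 688 against 325, and the amino acid transporter Slc6a20a 873 against 529. Vtn went the other way with 1201 against 2877 CPM, as did Rgs5 with 729 against 1823 and Higd1b with 61.6 against 202. Among endothelial genes Cldn5 was at 133 CPM (13 UMIs in all 125 nuclei) against 2279, and the thyroid hormone transporter Slco1c1 at 41.1 (4 UMIs) against 1455. In the summed pericyte-only nuclei 1 UMI is 10.3 CPM, so low values of this kind, here and below, rest on few UMIs.

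**Figure D3:**
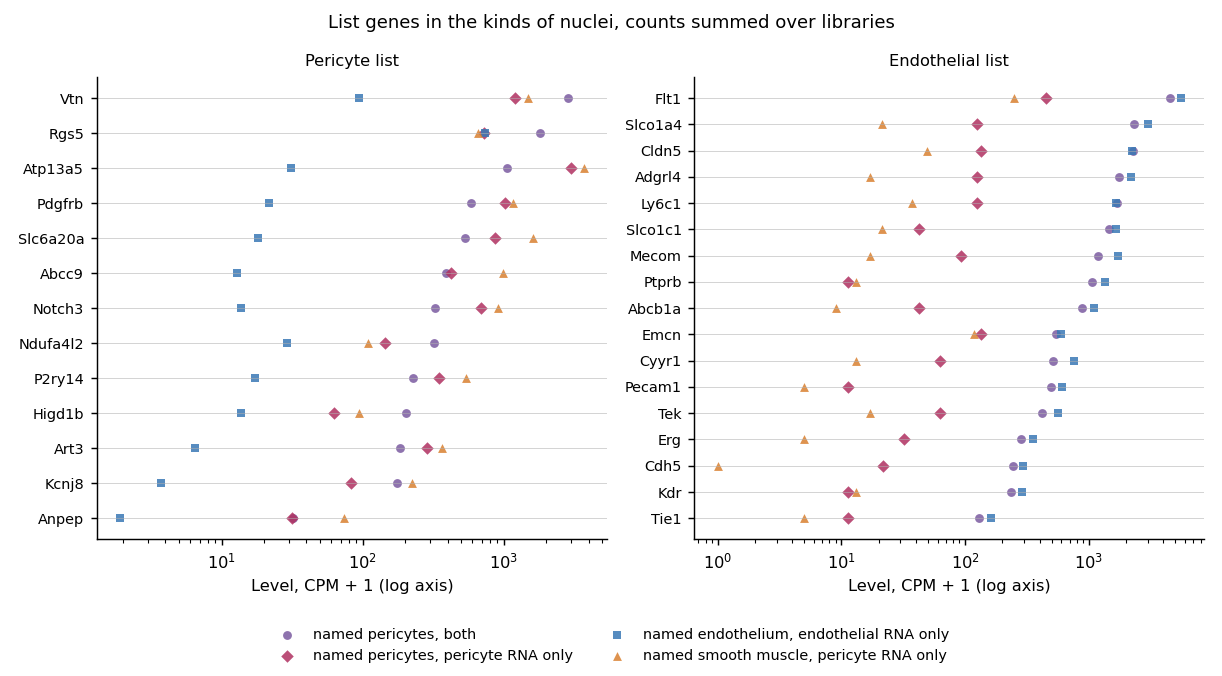
Levels (x axis, CPM + 1, log axis) of the 13 pericyte list genes and the 17 endothelial list genes in 4 kinds of nuclei, with UMIs summed over the 11 libraries. Nuclei named pericytes with both lists lie near or below the endothelial-only nuclei of vascular endothelium for endothelial genes, and pericyte-only nuclei lie near the pericyte-only nuclei named smooth muscle for most pericyte genes.

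Genes of 3 other lists were read in the same way, leaving out members of the 2 defining lists. Of 11 genes of vessel tone, 10 were higher in pericyte-only nuclei than in nuclei with both lists and 1 was lower. Among the higher were the L-type calcium channel Cacna1c (1736 against 484 CPM), the cyclic GMP-dependent kinase Prkg1 (2988 against 1445) and the chloride channel Ano1 (647 against 210). Of 12 basement membrane genes 4 were higher, such as Lama2 (1027 against 370 CPM) and Lamc1 (555 against 277), and 8 were lower, such as Col4a1 (154 against 348). Of 14 barrier transport genes 1 was higher and 13 were lower. Over the 161 list genes and leading genes read outside the 2 defining lists, 68 were higher and 92 lower. That set holds leading genes picked from these data, and the share over all measured genes was not computed. Since the kind was chosen for few endothelial UMIs, low levels of other endothelial genes follow in part from that choice. Higher levels of mural genes, such as those of vessel tone, can follow in part from it too, since levels are shares of all UMIs. The glucose transporter Slc2a1 had 92.4 CPM (9 UMIs) against 1154, the amino acid transporter Slc7a5 20.5 (2 UMIs) against 638, and the efflux pump Abcg2 164 (16 UMIs) against 761. Pdgfb, the endothelial ligand of Pdgfrb, had 20.5 CPM (2 UMIs) against 243. Malat1 itself took 9.62% of all UMIs in pericyte-only nuclei against 6.04% in nuclei with both lists, over all groups. These pooled values include the libraries dosed with the ASO. In the ATV:BACE1 libraries alone the means were 9.53% and 7.67% (n = 3). The kinds differ in depth, and these levels are a description with no test.

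The dosing groups were then compared by library, first for Malat1 (chr19:5795690-5802672, minus strand, a long non-coding RNA), which the ASO targets. Malat1 took 7.70%, 7.48% and 7.88% of the UMIs of the class in the 3 control libraries, given in the order of replicates 1, 4 and 5 here and for the other groups. It took 4.62%, 3.50% and 5.34% in the OTV:Malat1 libraries. It took 6.03%, 6.65% and 7.51% in nonTV:Malat1 and 5.98% and 6.31% in Malat1 ASO replicates 1 and 5. All 3 OTV:Malat1 libraries were below every other library, while nonTV:Malat1 replicate 5 overlapped the controls. Each nonTV:Malat1 and Malat1 ASO library was below the control library of its own batch.

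Against ATV:BACE1, Malat1 fell in OTV:Malat1 (log2 change -0.83 SE 0.136, adjusted p = 0.00376, edgeR's quasi-likelihood test with batch as a block and Benjamini-Hochberg adjustment over 6189 genes). It was the 1 gene called in that comparison (0.0162% of genes tested). The share of UMIs fell by 3.2 points, from 7.69% ± 0.200 to 4.49% ± 0.927 (SD, n = 3 each). An exact two-sided permutation of library labels within batches gave p = 0.00231, the smallest that the design allows, and 0.0231 after Benjamini-Hochberg adjustment over the 20 exact tests of the reported settings, the alternatives not counted. The edgeR call was lost without the block (log2 change -0.81, adjusted p = 0.0897) and rested on replicate 4: without OTV:Malat1 replicate 4 the log2 change was -0.66 (adjusted p = 0.354), and without ATV:BACE1 replicate 4 it was -0.76 (adjusted p = 0.136).

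Malat1 was not called in nonTV:Malat1 (log2 change -0.19, SE 0.135, adjusted p = 0.999 by edgeR) or in Malat1 ASO (log2 change -0.40, SE 0.157, adjusted p = 0.758 by edgeR) against ATV:BACE1. The exact permutation p-values were 0.512 and 0.208. Those permutations exchanged the labels of all 4 groups, so the OTV:Malat1 values widen the range against which these groups were read. Directly compared, OTV:Malat1 was below nonTV:Malat1 (log2 change -0.64, SE 0.136, adjusted p = 0.0319 by edgeR with the block, exact permutation p = 0.0741). That call was lost without the block (adjusted p = 0.646 by edgeR), by DESeq2 (adjusted p = 0.0766), and when a library was left out: OTV:Malat1 replicate 1 (adjusted p = 0.0977 by edgeR), OTV:Malat1 replicate 4 (0.829), nonTV:Malat1 replicate 4 (0.650) and nonTV:Malat1 replicate 5 (0.267). OTV:Malat1 did not pass against Malat1 ASO (log2 change -0.42, SE 0.153, adjusted p = 0.750 by edgeR).

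The fall was smaller in nuclei named pericytes than in those named vascular endothelium. In vascular endothelium Malat1 took 5.98%, 6.06% and 6.68% of UMIs in the ATV:BACE1 libraries and 1.93%, 1.41% and 2.16% in the OTV:Malat1 libraries. OTV:Malat1 thus stood at 29.4% of the control level there and at 58.4% in nuclei named pericytes. The log2 ratio of the pericyte to the endothelial share was 0.364, 0.302 and 0.239 in the controls and 1.26, 1.31 and 1.31 in OTV:Malat1, with no overlap. The 2 groups differed by 0.991 (exact two-sided permutation within batches p = 0.00231, the smallest possible, adjusted p = 0.0231). The differences within the 3 batches were 0.892, 1.01 and 1.07.

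The same ratio was 0.420, 0.589 and 0.518 in nonTV:Malat1 and 0.731 and 0.588 in Malat1 ASO, in each case above the controls. The differences from ATV:BACE1 were 0.207 (exact permutation p = 0.602) and 0.358 (exact permutation p = 0.444) and did not pass. In these tests the labels of all 4 groups were exchanged, so the OTV:Malat1 values widen the range against which the other groups were read.

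Within the class, the kinds of nuclei differed in Malat1. In nuclei with both lists Malat1 took 7.65%, 7.55% and 7.80% of UMIs in the controls and 4.44%, 3.38% and 4.94% in OTV:Malat1, which is 55.5% of the control mean. In pericyte-only nuclei it took 10.1%, 9.05% and 9.41% in the controls and 9.67%, 8.43% and 8.91% in OTV:Malat1, which is 94.5% of the control mean. In nuclei with both lists the groups were apart. In pericyte-only nuclei their ranges overlapped, and OTV:Malat1 was below its control in 3 of 3 batches. Endothelial-only nuclei of the class, which also held pericyte RNA when read at full depth, stood at 52.5% of control. Endothelial-only nuclei named vascular endothelium stood at 27.5% and pericyte-only nuclei named vascular smooth muscle at 89.3%, with only 3 of the latter in OTV:Malat1 replicate 5. For nonTV:Malat1 the nuclei with both lists stood at 85.9% and the pericyte-only nuclei at 117% of control. For Malat1 ASO they stood at 78.2% and 98.2%.

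**Figure D4:**
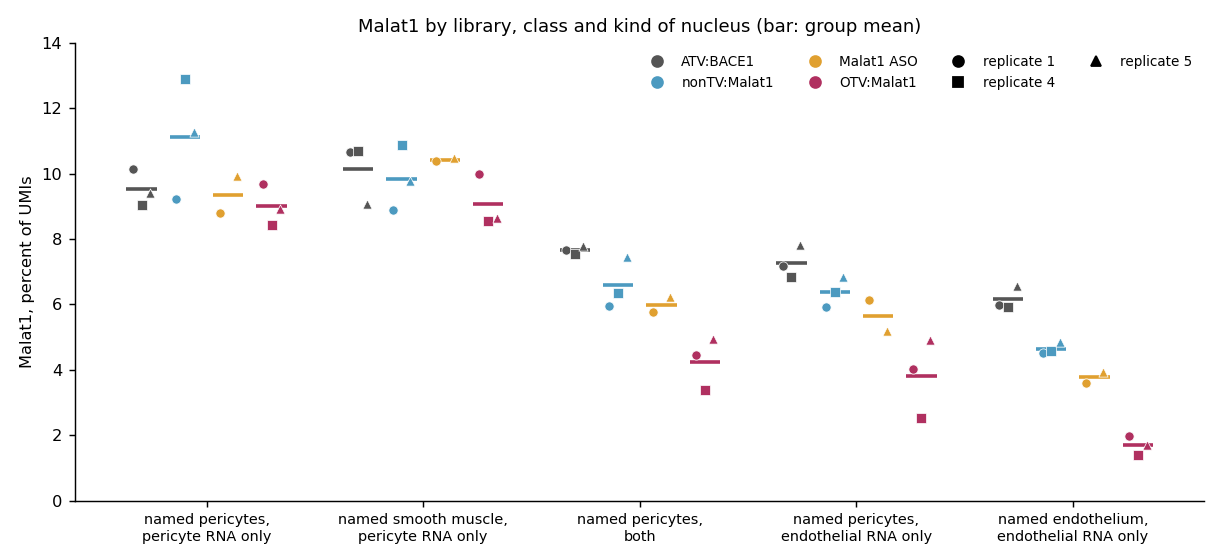
Malat1 as a percent of UMIs (y axis) in each library, for 5 combinations of class name and kind of nucleus (x axis); colours mark dosing groups, symbols replicates, and bars group means over 2 or 3 libraries. The OTV:Malat1 and ATV:BACE1 libraries overlap in both pericyte-only kinds, and the OTV:Malat1 libraries are below every other library in the 3 kinds with endothelial RNA.

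The difference between kinds was tested by the log2 ratio of Malat1 in pericyte-only nuclei to that in nuclei with both lists, in libraries with at least 10 nuclei of each. It was 0.406 and 0.270 in the controls (replicates 1 and 5) and 1.12, 1.32 and 0.850 in OTV:Malat1. The difference over the 2 batches held by both groups was 0.648 (exact two-sided permutation p = 0.0278, the smallest that these libraries allow, adjusted p = 0.185 over the 20 exact tests). It passed only before that adjustment. With 1 library left out the difference was 0.579 to 0.717. For 7 of the 8 libraries the exact permutation test could then no longer reach 0.05, and it gave its smallest possible p each time (0.0556 to 0.333). Leaving out OTV:Malat1 replicate 4 repeats the reported test, since its batch held no control library with enough nuclei. With no minimum number of nuclei, a choice made after seeing the data, all 3 batches entered and the difference was 0.785 (exact permutation p = 0.00231). The ratio was 0.610 and 0.670 in Malat1 ASO and 0.595 in nonTV:Malat1 replicate 5, all above both control values. The exact permutation p-values against ATV:BACE1 were 0.389 for Malat1 ASO, and 0.5 for nonTV:Malat1, where 1 library in 1 batch allows no p under 0.167.

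Depth moved with this result. Pericyte nuclei of 500 to 999 UMIs had 9.72% ± 0.307 Malat1 in ATV:BACE1 and 8.49% ± 1.12 in OTV:Malat1 (SD, n = 3 each), which is 87.4% of control. The value was 62.9% at 1000 to 1999 UMIs and 54.6% at 2000 or more. In vascular endothelium the same 3 bands stood at 31.2%, 30.1% and 26.5% of control. Within the class, depth and kind nearly coincide: under 1000 UMIs only 12 OTV:Malat1 nuclei held both lists. The 3 libraries of those 12 nuclei gave 6.02%, 12% and 5.64% Malat1, and their mean stood at 85.4% of the control mean (21 nuclei). The UMIs pooled over nuclei gave 6.24% against 9.45%. The 41 pericyte-only OTV:Malat1 nuclei of that depth stood at 93.7% of the control mean (29 nuclei), and pooled at 9.18% against 9.89%. Among nuclei of at least 1000 UMIs, split by the pericyte part of the 2 lists at 23.8% and 37.0%, OTV:Malat1 stood at 48.8%, 60.7% and 58.2% of control from the lowest to the highest part. That gap is far smaller than the one between the kinds, and it did not grow steadily. For pericyte-only nuclei, nearly all shallow, the parts of depth and kind cannot be told apart.

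With all 11 libraries, no difference in the number of nuclei of the class was detected between dosing groups. Shares of all nuclei were 0.897%, 0.604% and 1.08% in the controls, 0.644%, 1.31% and 0.462% in OTV:Malat1, 0.984%, 0.474% and 1.31% in nonTV:Malat1, and 0.926% and 0.831% in Malat1 ASO. The OTV:Malat1 libraries included both the highest and the lowest share of the study. The differences from ATV:BACE1 had exact permutation p-values of 0.866 (OTV:Malat1), 0.84 (nonTV:Malat1) and 0.778 (Malat1 ASO). OTV:Malat1 replicate 4 moved the estimate, but the adjusted test against ATV:BACE1 passed neither with it nor without it. By edgeR on nuclei per class, the log2 change of OTV:Malat1 against ATV:BACE1 was -0.92 without that library and -0.085 with it. Without it, edgeR gave an unadjusted p = 0.00975 (adjusted p = 0.0975 over all classes). Against nonTV:Malat1 the test did pass without that library (log2 change -0.98, adjusted p = 0.0463 by edgeR). With that library the log2 change was -0.18 (adjusted p = 0.867 by edgeR).

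The share of nuclei that held endothelial RNA was high in every library. Thinned to 1000 UMIs it was 98.9%, 97.8% and 98.8% in the controls, 98.1%, 98.8% and 100% in OTV:Malat1, 100% in each of the 3 nonTV:Malat1 libraries, and 97.4% and 98.5% in Malat1 ASO. Differences from ATV:BACE1 were 0.491 points (exact permutation p = 0.581), 1.51 points (exact permutation p = 0.0694) and -0.891 points (exact permutation p = 0.444). The nonTV:Malat1 difference had an exact permutation p of 0.0463 without Malat1 ASO replicate 1. At 500 UMIs, where shallow nuclei enter, the pericyte-only share was 19.1%, 15.2% and 23.4% in OTV:Malat1 and 13.6%, 10% and 10.6% in ATV:BACE1. These 2 groups did not overlap, yet the difference of 7.85 points did not pass (exact permutation p = 0.0602, adjusted p = 0.247). The highest value, 23.4%, belongs to OTV:Malat1 replicate 5, the library with the lowest median depth, where 40.6% of the nuclei were under 1000 UMIs, and the part of depth was not tested.

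None of the 5 marker genes of the class was called between dosing groups. The nuclei were named from their genes, so that choice may itself limit differences in these and in the list genes below. On the scale of CPM after TMM normalization, Vtn had 3218, 2347 and 2734 in the controls and 3264, 2603 and 2215 in OTV:Malat1. Flt1 had 4036, 5480 and 5080 in the controls and 5219, 5262 and 4829 in OTV:Malat1. The groups overlapped for both, and the 5 marker genes had log2 changes from -0.09 to 0.10 between these groups. Over all 5 comparisons the 5 genes ranged from -0.24 to 0.27, and the smallest adjusted p by edgeR was 0.951.

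**Figure D5:**
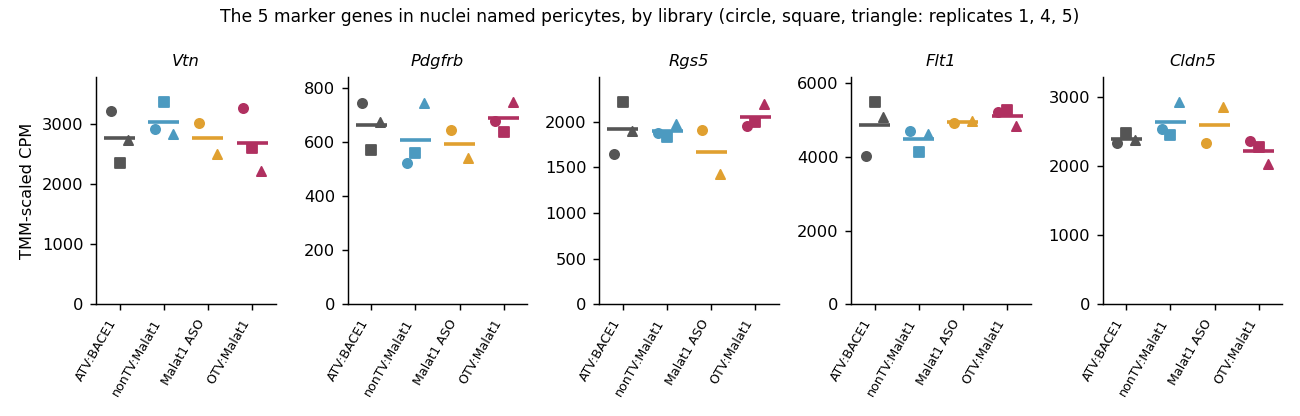
The 5 marker genes in nuclei named pericytes (y axis, CPM after TMM normalization) in each of the 11 libraries; colours and columns mark dosing groups, symbols replicates 1, 4 and 5, and bars group means. The groups overlap for each gene.

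Of the 13 pericyte and 17 endothelial list genes, 29 passed the filter on low counts (Anpep of the pericyte list did not), and 0 were called in any of the 5 comparisons by edgeR with the block or by DESeq2. At an unadjusted p under 0.05, edgeR gave 1 of the 29 in nonTV:Malat1 and 1 in Malat1 ASO against ATV:BACE1 and 0 in the other comparisons. Over all genes tested the share at that threshold was 3.62%, 5.28% and 5.53% for OTV:Malat1, nonTV:Malat1 and Malat1 ASO against ATV:BACE1, and 5.11% and 4.99% for OTV:Malat1 against nonTV:Malat1 and Malat1 ASO. In OTV:Malat1 against ATV:BACE1 the median log2 change was 0.08 over 12 pericyte genes and -0.04 over 17 endothelial genes, beside 0.008 over all genes tested. Barrier transport (16 genes tested), tight and adherens junctions (9), signals of pericyte recruitment (17), basement membrane (10), vessel tone (11) and endothelial activation (4) likewise had 0 members called in the 5 comparisons by either tool. Those 6 lists held 67 tested genes, of which edgeR gave 0 at an unadjusted p under 0.05 in OTV:Malat1 and nonTV:Malat1 and 5 in Malat1 ASO, each against ATV:BACE1. For OTV:Malat1 it gave 3 in the comparison with nonTV:Malat1 and 4 in that with Malat1 ASO. Tfrc, the mouse transferrin receptor, was among the genes tested without a call, with Slc2a1 and Pdgfb.

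Few genes were called beside Malat1. Against ATV:BACE1, edgeR with the block called 4 genes in nonTV:Malat1 (0.0646% of genes tested), all higher. They included Cntnap2, a neuronal adhesion protein of the axon (log2 change 1.87, SE 0.322, adjusted p = 0.00857 by edgeR), the potassium channel partner Kcnip4 (1.62) and the neuronal contactin Cntn5 (2.22). Kcnip4 had 857, 2428 and 372 CPM after TMM normalization in nonTV:Malat1 and 362, 344 and 235 in ATV:BACE1. Replicate 4 of nonTV:Malat1 was far above the rest, and the groups did not overlap. The summed neuron list had 1605, 2667 and 1059 CPM in nonTV:Malat1 and 1234, 1017 and 945 in ATV:BACE1, and its part in the result was not tested. Of its 6 tested members 4 had a log2 change above 0 and 2 below, with none called, from 1.08 for Meg3 to -0.57 for Nrgn. Without the nuclei called doublets edgeR called 0 genes in this comparison (222 at an unadjusted p under 0.05), and the log2 change of Kcnip4 was -0.11. DESeq2 with all nuclei called 1 gene, which was none of the 4.

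This count also moved with single libraries. It was 0 without ATV:BACE1 replicate 4 and 1 without nonTV:Malat1 replicate 4. It was 7 without ATV:BACE1 replicate 5, 14 without OTV:Malat1 replicate 1, 36 without nonTV:Malat1 replicate 5, and 38 and 41 when replicate 5 or 1 of Malat1 ASO was left out. At an unadjusted p under 0.05 edgeR gave 327 genes (5.28%) in this comparison and 224 (3.62%) in OTV:Malat1 against ATV:BACE1. In the latter comparison small p-values after Malat1 belonged to Gimap6 (log2 change 1.10), Edil3 (-1.70) and Gm47283 (1.94), with adjusted p of 0.765 or more by edgeR. Its count was 4 without OTV:Malat1 replicate 1, 2 without ATV:BACE1 replicate 5 and 0 without replicate 4 of either group.

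In Malat1 ASO against ATV:BACE1, 1 gene was called (0.0162%): Zbtb16, a zinc finger transcription factor, with 139 and 133 CPM in Malat1 ASO and 24.5, 68.7 and 23.5 in ATV:BACE1 (log2 change 2.23, SE 0.411, adjusted p = 0.0258 by edgeR). The groups did not overlap. DESeq2 called 0 genes (74 at an unadjusted p under 0.05), and the count ran from 0 without OTV:Malat1 replicate 4 or 5 to 19 without Malat1 ASO replicate 1. It was 2 without ATV:BACE1 replicate 1 or 4 or nonTV:Malat1 replicate 4, 4 without OTV:Malat1 replicate 1 or ATV:BACE1 replicate 5 and 5 without Malat1 ASO replicate 5. At an unadjusted p under 0.05 edgeR gave 342 genes (5.53%). The next smallest p-values were those of Tmeff2, Apold1, Pex5l and Nkain2 (log2 changes 1.48, 1.20, 1.39 and 1.09, each with an adjusted p of 0.0789 by edgeR).

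OTV:Malat1 differed from nonTV:Malat1 in 9 genes (0.145% of genes tested), of which 8 were lower (0.129%): Malat1, Kcnip4 (log2 change -2.12), Cntnap2, Cntn5, Nkain2, Robo1, Hs6st3 and Lingo2. It differed from Malat1 ASO in 9 genes (0.145% of genes tested), of which 8 were lower (0.129%): Nkain2 (-1.95), Edil3 (-2.62), Zbtb16, Pex5l, Slc24a2, Tmeff2, Pde4b and St18, a transcription factor of oligodendrocytes (-2.89, adjusted p = 0.000548 by edgeR). The oligodendrocyte list had 794 and 1009 CPM in Malat1 ASO and 405, 531 and 567 in OTV:Malat1, and St18 had 154 and 170 against 22.5, 43.1 and 12.9. The 1 higher gene in both comparisons was Hbb-bs, the beta chain of adult haemoglobin, which had 2189 CPM in OTV:Malat1 replicate 5, 245 in ATV:BACE1 replicate 1 and at most 5.4 in the other libraries. The 4 red blood cell genes together had 3026 CPM in that OTV:Malat1 library.

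DESeq2 with the block called 1 gene in each of these 2 comparisons, which was none of the 9 in the first and 1 of the 9 in the second. Without called doublets edgeR called 2 and 3 genes, and the log2 change of Lingo2 against nonTV:Malat1 turned from -1.67 to 0.37. The counts moved with single libraries too. Against nonTV:Malat1 the count was 0 without OTV:Malat1 replicate 4, 2 without nonTV:Malat1 replicate 4, 5 without nonTV:Malat1 replicate 1, 16 without nonTV:Malat1 replicate 5, and 21 and 22 when Malat1 ASO lost replicate 5 or 1. Against Malat1 ASO it was 4 without OTV:Malat1 replicate 4, 14 without nonTV:Malat1 replicate 4, and 16 and 24 when Malat1 ASO lost replicate 5 or 1. At an unadjusted p under 0.05 edgeR gave 5.11% of genes in the comparison with nonTV:Malat1 and 4.99% in that with Malat1 ASO. Without the block edgeR called 0 genes in each of the 5 comparisons, with 194 to 260 genes at an unadjusted p under 0.05. Where the comparisons share control libraries their gene lists are not independent, and no overlap between them was counted.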

How the data were processed

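The authors deposited 1 matrix of UMI counts (whole numbers, 25938 gene symbols by 110304 nuclei, not normalized) and an annotation of each nucleus. Per the file headers the annotation gives total counts, a mitochondrial percent, a class prediction score and a doublet score as a fraction from 0 to 1, a class name, a cluster, a doublet call and a batch. The submitters' processing notes name Cell Ranger 5.0.0, Seurat 4 and mm10, with no role for each; how nuclei were filtered, which reference gave the class names and which program called doublets is not stated in the sources read here. Matrix sums equalled the deposited totals in 110304 nuclei.

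Counts of the 930 nuclei were summed per library and tested with edgeR 4.0.16 in R 4.3.3 (glmQLFit and glmQLFTest, TMM, filterByExpr, all 4 groups in 1 fit, batch as a block, Benjamini-Hochberg over 6189 genes, threshold 0.05). DESeq2 1.42.0, no block, other filters and left-out doublets, depths or libraries were alternatives. Replicate numbers coincide with the deposited batch numbers and so pair the libraries. Deviations from group means had r from 0.0245 to 0.169 for the same number (15 pairs) and from -0.164 to 0.0861 for different numbers (30 pairs). The scripts were tested on simulated data. Called doublets were kept. Nuclei were thinned without replacement to 1000 or 500 UMIs (seed 20; 1 nucleus had fewer than 500). Per-library values were compared by exact two-sided permutation of labels within batches (3456 arrangements). Malat1 by kind of nucleus was planned at 1000 UMIs, where only 8 pericyte-only nuclei exist, and is therefore reported at 500 UMIs. The fits on nuclei without endothelial RNA were not run for the same reason. The labels do not say whether libraries came from separate animals, and p-values measure the spread between these libraries. Precision is limited by 40 to 126 nuclei per library.

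The genes named are Malat1, the 5 marker genes, list members, the leading genes of the class, called genes, and the 5 smallest p-values where fewer than 5 were called. Genes of vessel tone, basement membrane and barrier transport named by kind of nucleus, and Tfrc, Slc2a1 and Pdgfb, were picked from the lists after their values were seen. Some genes that this rule names are not reported here. Members and gene lists were chosen with earlier results of these data known. Coordinates are from GENCODE M21 on GRCm38, matched by symbol.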

Additional observations from a re-analysis of the deposited data

Results flagged for a closer look

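The change of Malat1 between OTV:Malat1 and ATV:BACE1 differed between nuclei named pericytes and nuclei named vascular endothelium: the log2 ratio of their Malat1 shares was 0.991 higher in OTV:Malat1, in 3 of 3 batches (exact permutation p = 0.00231, adjusted p = 0.0231 over the 20 exact tests of the reported settings). Within the class, the log2 ratio of pericyte-only nuclei to nuclei with both lists was 0.648 higher in OTV:Malat1, in 2 of 2 batches. That difference passed only before adjustment (exact permutation p = 0.0278, the smallest that these libraries allow, adjusted p = 0.185).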

How the results depend on the processing

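The alternatives changed calls more than directions. Counts of genes called, are given for comparisons 1 to 5, which are OTV:Malat1, nonTV:Malat1 and Malat1 ASO against ATV:BACE1, then OTV:Malat1 against nonTV:Malat1, then against Malat1 ASO. They were 1, 4, 1, 9 and 9 as reported. They were 0 in each without the replicate block, 3, 46, 15, 20 and 20 with no filter on low counts, and 1, 1, 0, 1 and 1 by DESeq2. Without called doublets 0, 2 and 3 genes were called in comparisons 2, 4 and 5, and without nuclei under 1000 UMIs 2 and 0 in comparisons 2 and 3. With the main cluster alone comparison 3 gave 0. With only singlets of at least 1000 UMIs and OTV:Malat1 replicate 5 left out, the last 4 gave 0 each. Leaving out 1 library moved the counts from 0 to 4, 0 to 41, 0 to 19, 0 to 22 and 4 to 24. The cause of these shifts was not tested, except that no filter tests more genes.

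For Malat1, the OTV:Malat1 change against ATV:BACE1 was -0.81 without the block (adjusted p = 0.0897 by edgeR) and -0.94 to -0.66 with 1 library left out. Against nonTV:Malat1 it was -0.62 without the block, -0.63 by DESeq2, -0.61 in the main cluster, -0.75 in deeper singlets and -0.74 to -0.48 with 1 library left out. Against Malat1 ASO it was -0.47 with no filter (adjusted p = 0.00497 by edgeR). Kcnip4 in nonTV:Malat1 against ATV:BACE1 turned to -0.11 without doublets and -0.14 in deeper singlets, and Lingo2 in OTV:Malat1 against nonTV:Malat1 to 0.37 in both. By edgeR the log2 change of the share of nuclei, near 0 as fitted (0.097 for nonTV:Malat1 and 0.0015 for Malat1 ASO), was -0.052 and -0.13 without doublets. With 1 library left out it ran from -0.92 to 0.38 for OTV:Malat1, from -0.31 to 0.50 for nonTV:Malat1 and from -0.24 to 0.23 for Malat1 ASO.

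The pericyte minus endothelial difference of Malat1 was 0.99 without the replicate block (exact permutation p = 0.1, the smallest for 3 against 3 libraries). The kind difference was 0.759 without the block (exact permutation p = 0.2), 0.610 and 0.683 at a minimum of 1 or 3 UMIs, 0.656 without doublets, 0.618 without Rgs5 and Flt1, 0.277 for a split at the median pericyte share (added after seeing the data) and 0.579 to 0.717 with 1 library left out. Of these only the difference without OTV:Malat1 replicate 4 passed 0.05. That library has no control partner with enough nuclei in its batch, so leaving it out repeats the reported test. Besides it, only the median split (exact permutation p = 0.0532) could reach 0.05. The share of nuclei with endothelial RNA in OTV:Malat1 turned to -0.289 points at a minimum of 1 UMI, -7.20 at 500 UMIs and -7.51 without thinning. In nonTV:Malat1 it turned to -0.0456 and -0.342 under the last 2, was 1.88 without Rgs5 and Flt1 (exact permutation p = 0.0185) and 1.17 to 1.69 with 1 library left out. The mean share of nuclei with both lists was 98.7% and 93.5% at a minimum of 1 or 3 UMIs, 73.2% at 500 UMIs, 85.4% without thinning and 93.8% without Rgs5 and Flt1. The replicate block changed no other call.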
